A study of Mus musculus with 56 samples.

Results

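The comparison described here is the difference between the sexes in how gastrocnemius muscle of HuR knockout-labelled mice responded to a running wheel. It was computed for each autosomal gene as a difference of differences, that is, the log2 change from locked to running wheel in females (FHE minus FH) minus the same change in males (MHE minus MH), so that a positive value is a response higher in females. It used the 28 knockout-labelled mice of the 56 in the series, 7 in each group. FH and MH are females and males labelled skeletal muscle HuR knockout and kept with a locked wheel, and FHE and MHE are knockout-labelled females and males with a running wheel from 10 to 20 weeks of age. All were C57BL/6 mice on a chow diet, and the labels give their age as 5 months. In this line Elavl1, the gene of HuR, is floxed and Cre is driven by the Mlc1f promoter, which is active in skeletal muscle fibres, so that other cells of the tissue keep the gene. The control groups (FC, FCE, MC and MCE) are floxed littermates without Cre, with the same wheels. They are used below as a reference for the levels of Elavl1 and Myl1. They are also used to ask whether the sex difference was measured in mice without the knockout label and whether it depended on that label.

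HuR is an RNA-binding protein that attaches to AU-rich stretches of many mRNAs and generally stabilises them. Voluntary running is known to raise genes of mitochondrial biogenesis and fat oxidation in rodent muscle, in part through the PGC-1 coactivators, and to shift fast fibres toward more oxidative forms. A whole muscle also holds blood vessels, connective tissue, fat, nerve and immune cells, and in bulk RNA fewer cells of a type and less RNA per cell cannot be told apart.

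Total counts per mouse ran from 7889427 to 18394231 over the 28 mice. By qPCR, the study reported less Elavl1 mRNA in gastrocnemius of knockout mice than of controls. In the counts used here, the level of Elavl1 did not separate knockout-labelled from control mice. It was at 37.9 to 62.3 CPM (the count scaled to library size) in FH, 49.2 to 62.5 in FHE, 45.4 to 58.6 in MH and 53.2 to 69.9 in MHE, against 38.9 to 48.2 in FC, 49.3 to 61.3 in FCE, 42.0 to 61.9 in MC and 27.8 to 60.9 in MCE. In 4 exact two-sided permutation tests against the control group of the same sex and wheel, MHE was higher than MCE by 14.0 CPM (p = 0.0321, adjusted p over the 4 tests 0.128) and the other adjusted p-values were 0.479 or higher, so the genotype is given throughout as the label states it. Xist and Ddx3y matched the sex labels in all 56 mice. Myl1, from whose promoter Cre is expressed, was at 7505 to 13950 CPM in the 28 control mice and at 2317 to 13700 in the knockout-labelled mice, 10 of which lay inside the control range (3 FH, 2 FHE, 2 MH and 3 MHE). The 8 markers that define skeletal muscle had a mean log2(CPM + 0.5) of 12.9 to 13.4 over the 28 mice. FH34 stood apart from the other 27 mice on the second principal component (49.1 against -13.5 to 9.61, 12.9% of the variance), and MH9 and MH24 had the highest mean level of brain markers (4.87 and 3.997 against 1.003 to 3.02 in the other 26, as mean log2(CPM + 0.5)).

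The wheel response differed between the sexes in 73 of 13163 autosomal genes tested (0.555%, limma, adjusted p of 0.05 or less). In 42 genes (0.319%) the response was higher in FH, and in 31 (0.236%) it was higher in MH. Among the 42 were the coactivator Ppargc1b, the glycogen phosphorylase kinase subunit Phkg1, the calcium-dependent kinase Camk2b and the large muscle protein Speg. Among the 31 were 6 listed genes of ribosomal proteins, both insulin genes, and the connective tissue and vessel genes Mgp, Apod and Plvap. In 71 of the 73 genes the fitted changes went in opposite directions in the 2 sexes, which the choice of genes by a difference of differences favours. The female change was larger in size in 54 of the 73. Of the 73, 50 were also called in FHE minus FH (where 1.20% of all genes were called higher and 1.07% lower) and 2 in MHE minus MH (where 0.0152% were called). Their median absolute log2 change was 0.43 in females and 0.23 in males, beside 0.16 and 0.14 over all autosomal genes. The difference between females and males was smaller in running than in locked mice for 64 of the 73 (87.7%), beside 61.6% of all autosomal genes, and the same choice of genes favours this too. Without adjustment 1775 of the 13163 genes had p under 0.05. Of other tools, edgeR's quasi-likelihood test called 60 differences and DESeq2 218.

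**Figure D1:**
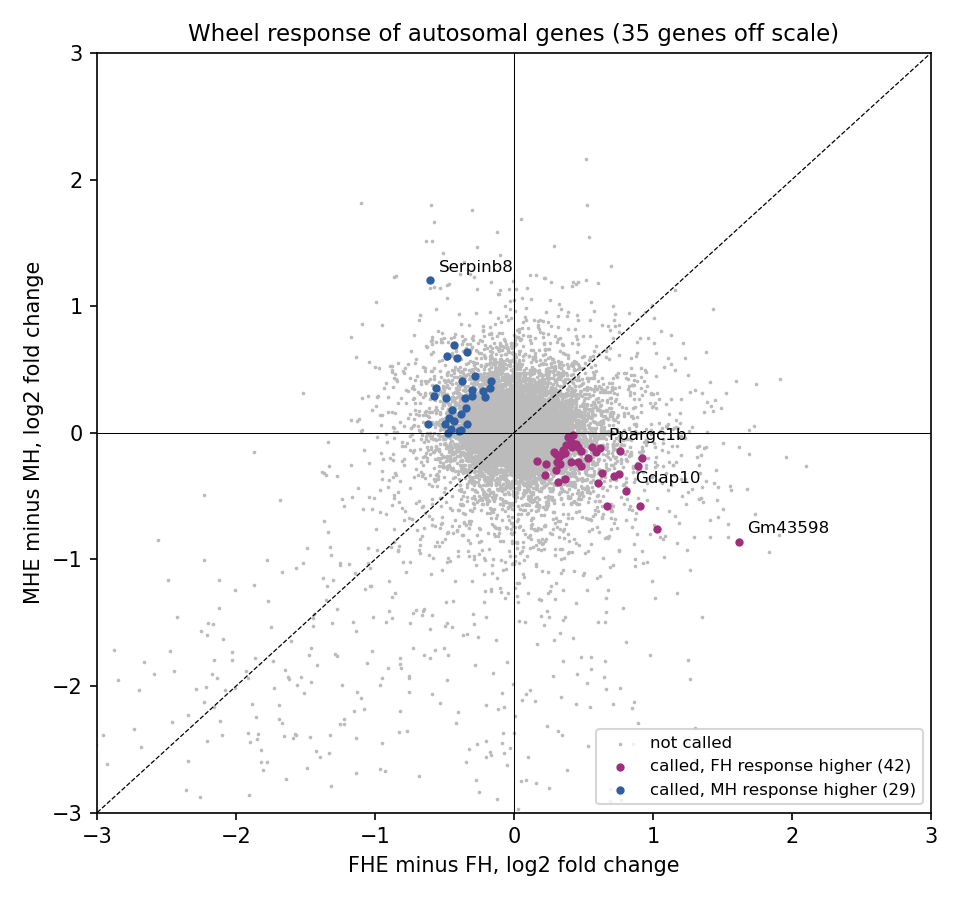
Each point is an autosomal gene, placed by its log2 change with the wheel in females (x axis) and in males (y axis) of the knockout-labelled groups, and the dashed line marks equal changes. The 42 genes called with a higher female response lie in the lower right quadrant, 29 called with a higher male response lie to the upper left, and 35 genes, the insulin genes included, lie beyond the limits of 3.0.

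The count of 73 changed when single mice were left out and when markers of other cell types were covariates. It was 11 without MHE2, 14 without MHE6, 15 without MH15, 25 without FH17, 29 without FH14, 30 without FHE2, 31 without FHE7 or without FHE10, 39 without MH8, and 44 without FH19 or without MH9. It was 117 without MH12, 158 without FH13 and 180 without FH34. All 73 genes kept their direction whichever of the 28 mice was left out. Adipocyte markers (10 genes) had a median mean level of 4.93 (4.16 to 5.43) in FH, 4.53 (4.20 to 5.19) in FHE, 3.37 (2.53 to 4.72) in MH and 3.93 (3.23 to 4.55) in MHE, as mean log2(CPM + 0.5) with the lowest and highest mouse. Their median difference of differences was -1.04, negative in 9 of 10, with 0 called (5 at an unadjusted p under 0.05, and 0 by edgeR's quasi-likelihood test or DESeq2). Leukocyte markers (16 of 18 in the table) were at 3.22 (2.73 to 3.32) in FH, 3.11 (2.78 to 3.379) in FHE, 2.60 (1.89 to 3.07) in MH and 2.70 (2.25 to 3.57) in MHE, with a median difference of differences of -0.42, negative in 13 of 16. Brain markers (6 of 9 tested) had a median difference of 1.84, positive in 6 of 6, with a median male change of -1.76 and a female one of -0.055. Liver markers (24 genes) had median wheel changes of -1.90 in females and -2.01 in males and a median difference of 0.12 (0 called within a sex by limma, and 12 in females and 0 in males by the quasi-likelihood test), and with them as a covariate 68 genes were called. With the adipocyte markers as a covariate 14 genes were called, with the leukocyte markers 8, with the brain markers 21, and without MH9 and MH24 34. All 73 genes kept their sign in these 4 fits. Without the 10 mice whose Myl1 lay in the control range 39 genes were called, 5 higher in FH and 34 higher in MH, and 16 of them were among the 73. The part of these cell types in the results below was not tested.

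Genes with a higher response in FH included regulators of energy use. Ppargc1b, the coactivator PGC-1β that drives genes of mitochondrial respiration, was at 17.4, 23.8 and 28.4 CPM in FH, 30.03, 35.1 and 44.9 in FHE, 27.3, 33.4 and 39.8 in MH and 24.1, 30.03 and 35.6 in MHE (lowest, median and highest mouse). Every FHE mouse was above every FH mouse, while MH and MHE overlapped. Its log2 change was 0.62 ± 0.11 (SE) in females (adjusted p = 0.00207) and -0.12 ± 0.11 in males (adjusted p = 0.739), and the difference of differences was 0.75 ± 0.16 (SE), adjusted p = 0.0284. Phkg1, the catalytic subunit of muscle phosphorylase kinase, which switches on glycogen breakdown, was at 101, 106 and 142 CPM in FH, 127, 138 and 166 in FHE, 139, 151 and 184 in MH and 122, 125 and 154 in MHE. Both pairs of groups overlapped, with higher medians in running females and lower medians in running males, and the difference was 0.58 ± 0.12 (SE), adjusted p = 0.0242. On their own strands Ppargc1b overlaps Mir378a, and Phkg1 overlaps Chchd2. Aldh5a1, a mitochondrial enzyme that breaks down succinic semialdehyde from GABA, differed by 0.9977 ± 0.20 (SE), adjusted p = 0.0284, with 3.04, 3.75 and 5.68 CPM in FH, 4.66, 5.67 and 7.00 in FHE, 4.22, 5.19 and 5.98 in MH and 2.76, 4.06 and 4.57 in MHE. It was called in 26 of 28 fits without a mouse. It lost the call with the leukocyte or the brain markers, without MH9 and MH24, and without the mice of control-range Myl1.

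Camk2b, Pde4a, Helz and Speg were chosen from the 42 genes after their values were seen. Camk2b, a calcium/calmodulin-dependent kinase subunit, was at 42.5, 47.6 and 55.5 CPM in FH, 53.3, 58.4 and 64.6 in FHE, 63.5, 72.1 and 99.5 in MH and 47.7, 56.1 and 70.2 in MHE, and every FH mouse was below every MH mouse while the running groups overlapped. Its difference was 0.70 ± 0.13 (SE), adjusted p = 0.0149, from 0.32 in females (adjusted p = 0.0728) and -0.38 in males (adjusted p = 0.222), so that neither sex passed the test on its own. Pde4a, which degrades cyclic AMP, was at 27.4, 36.0 and 36.9 CPM in FH, 46.3, 49.1 and 56.5 in FHE, 42.6, 56.2 and 67.1 in MH and 41.6, 51.5 and 60.6 in MHE. All FHE mice were above all FH mice, and the difference was 0.67 ± 0.12 (SE), adjusted p = 0.0135. Helz, an RNA helicase, differed by 0.63 ± 0.12 (SE), adjusted p = 0.0149. Speg, a giant muscle kinase of the sarcoplasmic reticulum junction, differed by 0.60 ± 0.13 (SE), adjusted p = 0.0284.

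Other coding genes with the largest differences included Barx2, Dagla and Dhx35. Barx2, a homeobox factor of muscle progenitors, was at 2.97, 4.51 and 6.51 CPM in FH, 6.16, 8.51 and 8.99 in FHE, 3.72, 6.15 and 9.45 in MH and 3.78, 5.01 and 5.49 in MHE and differed by 1.08 ± 0.26 (SE), adjusted p = 0.0421. Dagla, which makes the endocannabinoid 2-arachidonoylglycerol, was at 1.73, 2.61 and 3.25 CPM in FH, 2.91, 4.06 and 5.16 in FHE, 3.08, 4.18 and 5.15 in MH and 1.98, 3.41 and 3.86 in MHE and differed by 1.06 ± 0.26 (SE), adjusted p = 0.0468. Dhx35, a putative RNA helicase, was at 2.49, 3.21 and 4.89 CPM in FH, 4.50, 5.63 and 6.55 in FHE, 5.10, 6.58 and 7.95 in MH and 5.01, 6.32 and 7.23 in MHE and differed by 0.90 ± 0.20 (SE), adjusted p = 0.0312. In these 3 genes the running females overlapped the locked females. Of the 28 fits that left out a mouse, 7 called Barx2, 3 Dagla and 19 Dhx35. Barx2 and Dhx35 were called in 13 of 17 other settings and Dagla in 9. All 3 lost the call with the leukocyte markers as a covariate and without the mice of control-range Myl1. Dagla and Dhx35 also lost it with the adipocyte or the brain markers, and Dagla in the fit of 56 mice.

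**Figure D2:**
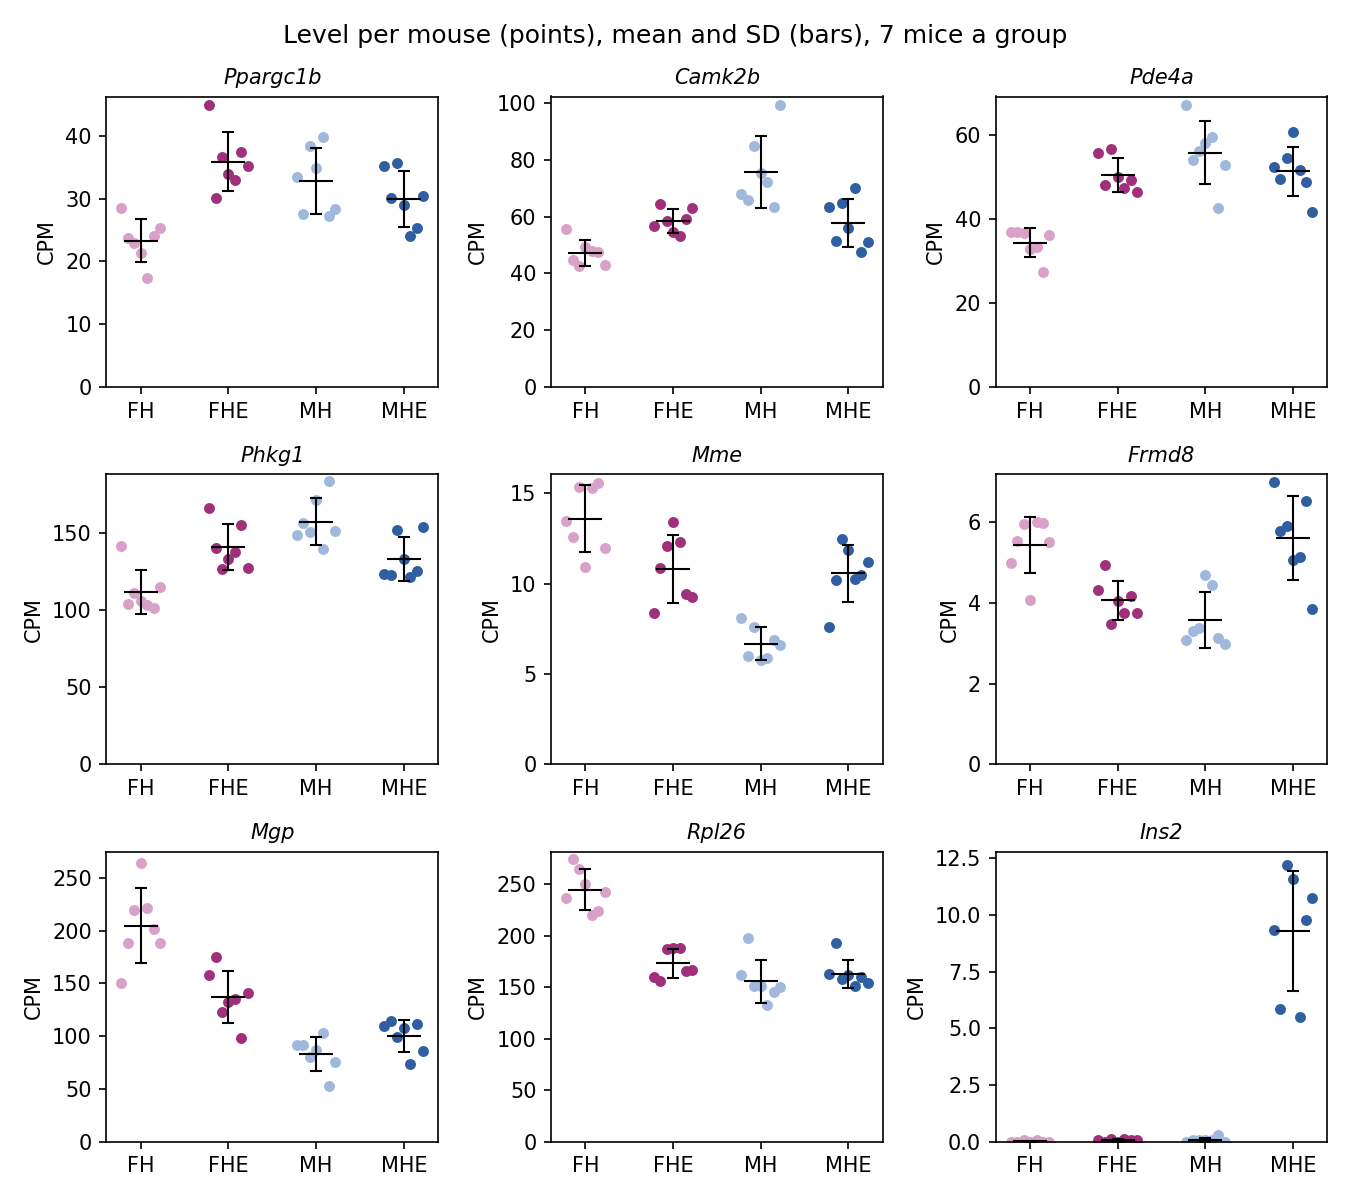
CPM of 9 genes in each of the 28 mice by group, with the mean and SD as bars. Locked and running females separate for Ppargc1b, Pde4a and Rpl26, and Ins2 is at 5.52 to 12.2 CPM in the 7 MHE mice and at most 0.286 CPM in the other 21.

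The 7 largest positive differences belonged to non-coding loci or pseudogenes, each of which overlaps another gene on its own strand, so that the reads of such a pair may not be separable. Gm43598 (chr5:150597062-150599540, overlapping N4bp2l1) was at 0.335, 0.629 and 1.32 CPM in FH, 0.826, 2.58 and 3.40 in FHE, 1.51, 2.14 and 3.01 in MH and 0.404, 1.20 and 2.92 in MHE and differed by 2.48 ± 0.53 (SE), adjusted p = 0.0284. Gm25873 (chr16:43126233-43126339, overlapping Zbtb20) was at 0.905, 1.15 and 1.67 CPM in FH, 1.83, 2.59 and 3.57 in FHE, 1.52, 2.84 and 3.81 in MH and 0.695, 1.98 and 2.47 in MHE, without overlap between locked and running females, and differed by 1.79 ± 0.38 (SE), adjusted p = 0.0284. Gm43063 (chr3:103096746-103097826, overlapping Ampd1) was at 3.88, 7.98 and 12.9 CPM in FH, 10.7, 12.8 and 20.9 in FHE, 10.4, 13.5 and 22.5 in MH and 6.10, 9.63 and 19.5 in MHE and differed by 1.49 ± 0.34 (SE), adjusted p = 0.0344. The others were Gdap10 at 1.27 ± 0.28 (overlapping Nampt), Gm37677 at 1.24 ± 0.30 (overlapping Ppp1r12b), Gm44694 at 1.15 ± 0.27 (overlapping Akap13) and Hmgb1-ps8 at 1.12 ± 0.27 (overlapping Gm26740), with adjusted p-values from 0.0297 to 0.0468. Of the 28 fits without a mouse, 16 called Gdap10, 7 Gm37677, 10 Gm44694, 6 Hmgb1-ps8, 16 Gm43063, 26 Gm25873 and 23 Gm43598. Gm37677 and Hmgb1-ps8 were called in 7 of 17 other settings and lost the call by the quasi-likelihood test, with upper-quartile factors and with limma trend. The overlapping genes were looked at because of these loci. Of them only Ppp1r12b, a myosin phosphatase subunit, was called itself (0.53 ± 0.12 (SE), adjusted p = 0.0297). N4bp2l1 differed by -0.11, Zbtb20 by 0.21, Ampd1 by -0.061 and Akap13 by 0.15, and Nampt, with -0.39, had the opposite sign to Gdap10 (adjusted p = 0.0892), and Gm26740 had 0.83 (adjusted p = 0.0647). All positions are on GRCm38.

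Genes with a higher response in MH included several of vessels, connective tissue and membranes. Mme, the membrane peptidase neprilysin, was at 10.9, 13.4 and 15.6 CPM in FH, 8.38, 10.8 and 13.4 in FHE, 5.77, 6.6 and 8.11 in MH and 7.60, 10.5 and 12.4 in MHE. Locked females were all above locked males, and the running groups overlapped. Its difference was -0.98 ± 0.18 (SE), adjusted p = 0.0130, from -0.34 ± 0.11 in females and 0.64 ± 0.13 in males (adjusted p = 0.112 and 0.0748). Frmd8, a cofactor of the sheddase complex that releases membrane proteins, was at 4.09, 5.54 and 6.01 CPM in FH, 3.47, 4.04 and 4.93 in FHE, 2.99, 3.32 and 4.68 in MH and 3.85, 5.79 and 6.99 in MHE and differed by -1.12 ± 0.20 (SE), adjusted p = 0.0130. Mme and Frmd8 were called in each of the 28 fits that left out a mouse and in 16 of 17 other settings, and both lost the call without the 10 mice of control-range Myl1 (adjusted p = 0.125 and 0.0668).

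Mgp, an inhibitor of calcification made by vascular and connective tissue cells, was at 151, 202 and 264 CPM in FH, 97.9, 135 and 175 in FHE, 52.7, 86.5 and 103 in MH and 74.0, 107 and 114 in MHE and differed by -0.86 ± 0.19 (SE), adjusted p = 0.0284. Apod, a lipid-binding apolipoprotein, was at 68.6, 90.7 and 106 CPM in FH, 55.0, 65.9 and 84.8 in FHE, 39.7, 55.4 and 73.2 in MH and 52.4, 72.4 and 88.3 in MHE and differed by -0.78 ± 0.17 (SE), adjusted p = 0.0297. Plvap, which forms the diaphragms of capillary fenestrae and caveolae, was at 17.8, 20.3 and 26.2 CPM in FH, 13.2, 14.3 and 16.4 in FHE, 14.4, 14.9 and 21.2 in MH and 14.1, 22.3 and 24.3 in MHE. All FHE mice were below all FH mice, and the difference was -0.76 ± 0.16 (SE), adjusted p = 0.0284. Tagln, an actin-binding protein of smooth muscle, was at 13.5, 22.5 and 31.8 CPM in FH, 11.9, 17.5 and 22.1 in FHE, 14.5, 16.6 and 22.8 in MH and 16.7, 28.8 and 42.8 in MHE and differed by -1.09 ± 0.26 (SE), adjusted p = 0.0468, with 6 of 28 fits without a mouse keeping the call. Of the same 28 fits, 23 called Mgp, 19 Apod and 26 Plvap. Mgp, Apod, Plvap and Tagln each lost the call with the adipocyte or the leukocyte markers as a covariate. Mgp, Plvap and Tagln lost it with the brain markers. Plvap and Tagln lost it without MH9 and MH24, and Apod and Tagln without the mice of control-range Myl1.

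Shox2, a homeobox factor, differed by -1.0006 ± 0.21 (SE), adjusted p = 0.0284, with 8.60, 11.1 and 12.9 CPM in FH, 5.16, 9.23 and 10.5 in FHE, 4.29, 6.15 and 7.36 in MH and 5.97, 8.72 and 12.1 in MHE. Asb5, a muscle ankyrin-repeat protein, differed by -0.92 ± 0.21 (SE), adjusted p = 0.0405, with 146, 214 and 345 CPM in FH, 132, 158 and 165 in FHE, 114, 187 and 236 in MH and 173, 252 and 280.5 in MHE. Dock1, an activator of Rac, differed by -0.73 ± 0.16 (SE), adjusted p = 0.0297, with 7.65, 9.78 and 11.1 CPM in FH, 6.77, 7.55 and 8.84 in FHE, 4.93, 6.23 and 8.47 in MH and 7.58, 8.06 and 9.40 in MHE. Serpinb8, an intracellular protease inhibitor, was low, at 1.45, 1.89 and 2.96 CPM in FH, 0.491, 1.53 and 2.40 in FHE, 0.5004, 0.753 and 1.23 in MH and 0.944, 1.94 and 2.48 in MHE, and differed by -1.81 ± 0.44 (SE), adjusted p = 0.0468. The fits without a mouse that kept the call numbered 24 of 28 for Shox2, 12 for Asb5, 20 for Dock1 and 9 for Serpinb8, which was called in 7 of 15 other settings and lost the call by the quasi-likelihood test and in the fit of 56 mice. All 4 genes lost the call with the adipocyte, leukocyte or brain markers as a covariate and without MH9 and MH24. Asb5, Dock1 and Serpinb8 also lost it without the mice of control-range Myl1. In all 4 genes the locked and running mice of each sex overlapped, and the adjusted p-values within a sex were 0.0419 for Asb5 in females and 0.118 or higher for the others in either sex. Fibroblast markers (10 genes) had a median difference of -0.45, all 10 negative with 0 called (6 unadjusted, 0 by the quasi-likelihood test, 1 by DESeq2), and endothelial markers (7 genes) a median of -0.28, all 7 negative with 0 called (1 unadjusted, 0 by either tool).

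The largest negative differences were of the insulin genes, which are normally made in pancreatic beta cells. Ins1 (chr19:52264297-52265476) had 50 to 106 counts in the 7 MHE mice, 0 or 1 in each MH and FH mouse and 0 to 3 in each FHE mouse. Ins2 (chr7:142678656-142743381) had 76 to 136 counts in MHE, 0 to 4 in MH, 0 or 1 in FH and 0 to 2 in FHE. MHE did not overlap any of the other 3 groups. The fitted differences were -6.00 ± 0.99 (SE), adjusted p = 0.0130 for Ins1 and -5.87 ± 1.06 (SE), adjusted p = 0.0130 for Ins2, but with so few counts in 3 groups their size depends on the prior count, and edgeR's quasi-likelihood test gave adjusted p = 0.286 for Ins1 and 0.107 for Ins2, with no adjusted p from DESeq2 for either. In MHE minus MH, limma, the quasi-likelihood test and DESeq2 each called both genes higher. Among control mice 1 MCE mouse had 86 and 108 counts of the 2 genes and no other had more than 6. The other 11 pancreatic markers, glucagon and the digestive enzymes among them, were not in the table that was analysed. The source of the insulin reads was not tested.

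Part of the genes of cytosolic ribosomal proteins, which build the ribosome with its RNAs, fell in running females. Of 59 listed and tested, 29 were lower in FHE than in FH and 0 higher (1.07% and 1.20% of all autosomal genes), 0 were called in MHE minus MH (limma, 3 at an unadjusted p under 0.05, 0 by edgeR's quasi-likelihood test or DESeq2), and 6 had a negative difference of differences. The list median was -0.29 in females, -0.0043 in males and -0.30 for the difference, beside 0.016, -0.00051 and 0.019 over all genes. Their mean level per mouse was 7.19 (6.96 to 7.38) in FH, 6.95 (6.79 to 7.00) in FHE, 6.81 (6.75 to 6.92) in MH and 6.79 (6.66 to 6.94) in MHE, as mean log2(CPM + 0.5), so locked females were the highest group and running females lay nearer to the males.

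Rpl26, of the large subunit, was at 220.5, 242 and 275 CPM in FH, 156, 167 and 188 in FHE, 133, 151 and 198 in MH and 151, 160.3 and 193 in MHE. Every FHE mouse was below every FH mouse, and the difference was -0.57 ± 0.11 (SE), adjusted p = 0.0141. Rps20, of the small subunit, was at 454, 506 and 657 CPM in FH, 354, 375 and 404 in FHE, 347, 380.0 and 462 in MH and 364, 406 and 423 in MHE, again without overlap in females, and differed by -0.49 ± 0.10 (SE), adjusted p = 0.0284. Rps25, Rps24 and Rpl32 differed by -0.53, -0.48 and -0.41 (SE 0.13, 0.11 and 0.099), each with an adjusted p of 0.0468. Outside the list, and named after their values were seen, Rps15a (-0.58 ± 0.13 (SE), adjusted p = 0.0284), Rpl31 (-0.42 ± 0.091 (SE), adjusted p = 0.0288) and Gas5, a growth-arrest RNA that hosts small nucleolar RNAs (-0.53 ± 0.13 (SE), adjusted p = 0.0429), were called in the same direction. Many ribosomal protein genes have processed pseudogenes, whose reads the counting may have divided. The count of listed genes lower in FHE was 21 to 35 when a mouse was left out and 21 without the 10 mice of control-range Myl1, and edgeR's quasi-likelihood test called 29 and DESeq2 33. The 6 became 4 by the quasi-likelihood test, 18 by DESeq2, 1 with the leukocyte or the brain markers as a covariate, 2 with the adipocyte markers and 1 without MH9 and MH24. With 1 mouse left out they became 1 without MH15, MHE2 or MHE6, 2 without FH14, FH17, FHE2, FHE7, FHE10, MH9 or MH24, 3 without FH19, FHE22, MH8, MH23, MHE1 or MHE22, 10 without FH34 and 13 without FH13 or MH12. The list median of the difference kept most of its size, at -0.275 with the leukocyte markers, -0.261 with the adipocyte markers, -0.253 with the brain markers and -0.322 to -0.275 when a mouse was left out.

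mRNAs of ribosomal proteins are known to begin with a run of pyrimidines that couples their translation to growth signals. The sequence around the RefSeq start (30 bases before to 50 from it, GRCm38.p6) is shown for 3 of the called listed genes, with runs of 8 or more C or T on the gene's strand in capitals. Rps24 lies at chr14:24490648-24490727, Rps25 at chr9:44407684-44407763 and Rpl26 at chr11:68901536-68901615, all on the plus strand.
Rps24: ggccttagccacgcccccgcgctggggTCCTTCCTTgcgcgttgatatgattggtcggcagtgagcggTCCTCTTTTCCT
Rps25: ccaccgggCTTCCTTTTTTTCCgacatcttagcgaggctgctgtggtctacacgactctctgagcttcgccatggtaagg
Rpl26: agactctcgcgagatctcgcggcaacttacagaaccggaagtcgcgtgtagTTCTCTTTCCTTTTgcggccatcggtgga
Such a run was present in 31 of 43 listed genes with a sequence (72.1%) and in 9527 of 32851 promoters of all genes (29%). Each listed gene was counted by a single promoter, while the second count takes every promoter, so the units are unlike. Runs before the start were counted too, and these lie outside an mRNA that begins there. The longest run was of 12 bases in Rps24 and of 14 in Rps25 and Rpl26. In Rps25 the run lies before the annotated start and in Rpl26 after it, while in Rps24 the shorter run spans the start and the longer one touches the end of the window. Only this window and strand were searched.

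The other pathway lists held few called differences. Over all 13163 autosomal genes 1775 differences had an unadjusted p under 0.05, the quasi-likelihood test called 60 and DESeq2 218. Of the mitochondrial biogenesis and PGC-1 list (20 tested) only Ppargc1b was called, with a list median of 0.27 and 16 of 20 positive. Ppargc1a, the better known coactivator, rose in FHE (0.36 ± 0.096, adjusted p = 0.0423) and had 0.022 ± 0.094 in males, but its difference of 0.33 did not pass (adjusted p = 0.263). The genes of fatty acid uptake and oxidation (35 tested) had 5 rises in FHE (1.20% of all autosomal genes rose), 0 calls in MHE (0.0152% of all genes, with 4 members at an unadjusted p under 0.05, 0 by either other tool) and 0 called differences (6 unadjusted, 0 by edgeR's quasi-likelihood test and 2 by DESeq2), with a median of 0.24 in females and 0.037 in males. Among the 5 were the lipase Lpl (0.58 ± 0.13), the uncoupling protein Ucp3 (1.03 ± 0.26), the lipase inhibitor Angptl4 (2.10 ± 0.54) and the beta-oxidation enzymes Hadhb and Eci1 (0.41 and 0.27). The difference was 1.28 ± 0.35 for Ucp3 (adjusted p = 0.0842) and 2.36 ± 0.81 for Angptl4 (adjusted p = 0.179).

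In the fast-fibre list (17 tested) 2 genes rose and 2 fell in FHE (1.20% and 1.07% of all genes), and 0 differences were called by limma (4 unadjusted), edgeR's quasi-likelihood test or DESeq2. In the slow-fibre list (15 tested) 1 gene rose, and 0 differences were called by limma (2 unadjusted) or the quasi-likelihood test and 1, a lower one, by DESeq2. Myh2 and Myh1, the myosins of the more oxidative fast fibres, rose by 0.70 ± 0.13 and 0.60 ± 0.13 in FHE (adjusted p = 0.00205 and 0.0102) and had 0.27 and 0.35 in males (adjusted p = 0.439 and 0.348). Mylpf, the fast regulatory light chain, and Myoz1, a Z-disc protein of fast fibres, had -0.38 ± 0.076 and -0.32 ± 0.074 in FHE, both without overlap with FH, and -0.053 and -0.17 in males. Ldhb and Hk2 of the glycolysis list, Ckmt2 of the slow-fibre list, Vegfa, the clock repressor Nfil3, Mef2d and the ubiquitin ligase Fbxo32 also rose in FHE, by 0.58, 0.33, 0.62, 0.52, 0.85, 0.34 and 0.71, with male values from -0.052 to 0.38. Atf4, a factor of the stress response, fell in FHE by 0.43 ± 0.11 and Thbs1, a matrix protein, by 1.04 ± 0.28. By limma the differences for these genes had adjusted p-values of 0.0637 or higher, and DESeq2 called 1 difference in each of the glycolysis, capillary, and ER stress and ATF4 lists. In the myogenic and satellite cell list DESeq2 called 1 higher and 1 lower difference.

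Collagens and other matrix genes (29 tested) had a median difference of -0.40, negative in 29 of 29 with 0 called (14 unadjusted, 0 by the quasi-likelihood test, 2 by DESeq2), from -0.043 in females and 0.34 in males, where 29 of 29 were positive. Immediate early genes (26 tested), which respond within minutes to activity or handling, had a median of -0.36 with 0 called (9 unadjusted, 0 by the quasi-likelihood test, 4 by DESeq2), and Klf4 and Ier5 came nearest the threshold (-0.87 and -0.88, adjusted p = 0.0589 and 0.0730). Subunits of the respiratory chain (74 tested) had a median of -0.028, with 1 rise and 4 falls in FHE (1.20% and 1.07% of all genes) and 0 called differences (11 unadjusted, 0 by the quasi-likelihood test, 2 by DESeq2). Proteasome subunits (31 tested) had 3 falls in FHE (1.07% of all genes), namely Psmd6, Psmb1 and Psma6. Their median difference was -0.11, with 0 called (6 unadjusted, 0 by the quasi-likelihood test, 1 by DESeq2). Heat shock, interferon, lipid synthesis, neuromuscular junction and cell cycle genes and the list of HuR and other AU-rich element binding proteins had 0 limma calls in any of the 3 contrasts. Their differences with an unadjusted p under 0.05 numbered 3, 1, 4, 2, 2 and 4 in that order, none was called by the quasi-likelihood test, and DESeq2 called 1, in the last list. Elavl1 itself had a difference of -0.09 ± 0.12 (adjusted p = 0.803).

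**Figure D3:**
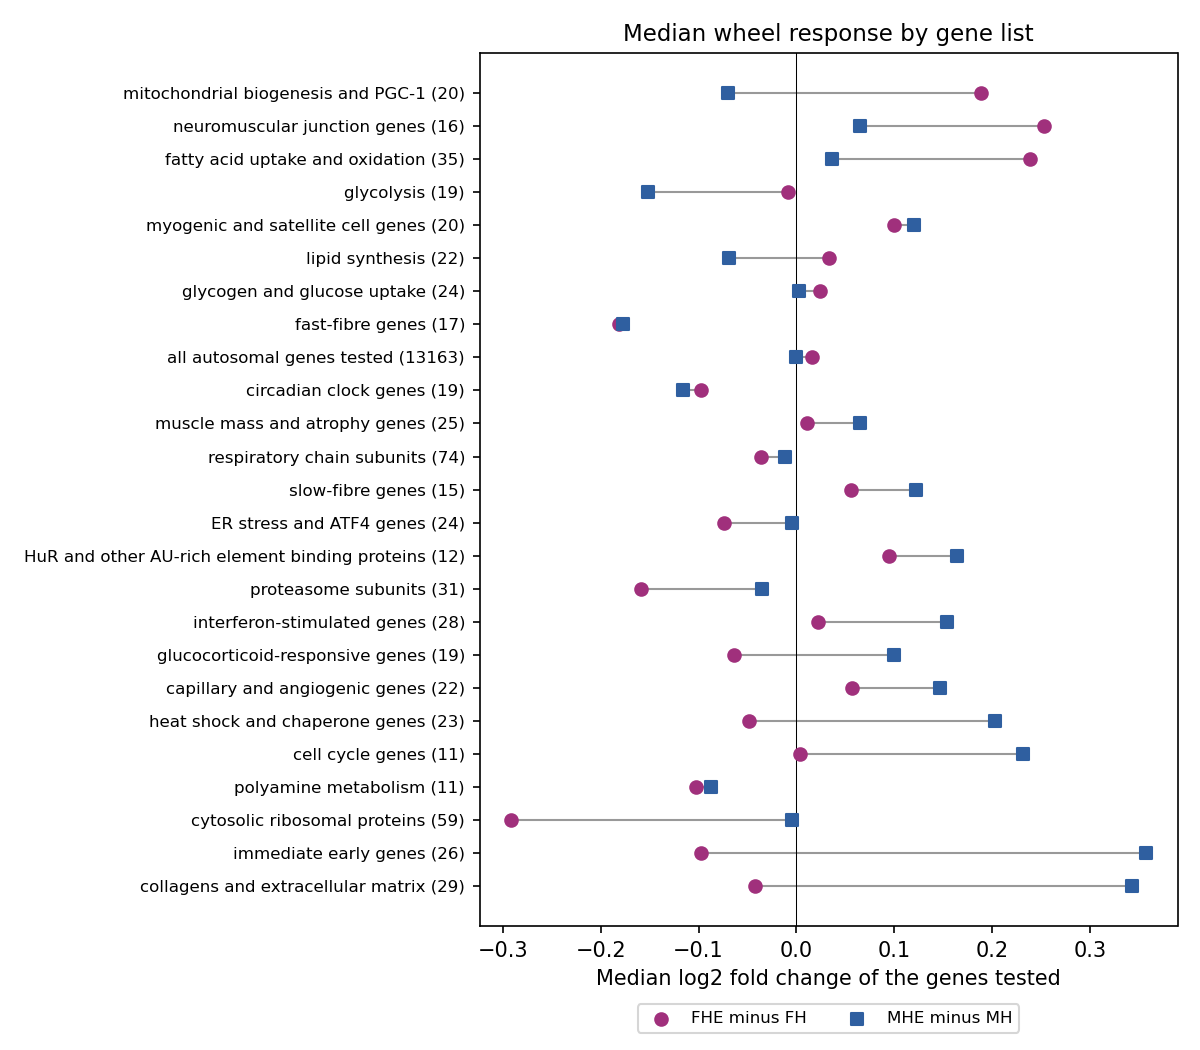
Median log2 wheel response of each pathway list in females (circles) and males (squares), ordered by the median difference of differences, with the number of genes tested in brackets. Ribosomal protein genes sit at -0.29 in females and near 0 in males, and collagens at -0.043 and 0.34.

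**Figure D4:**
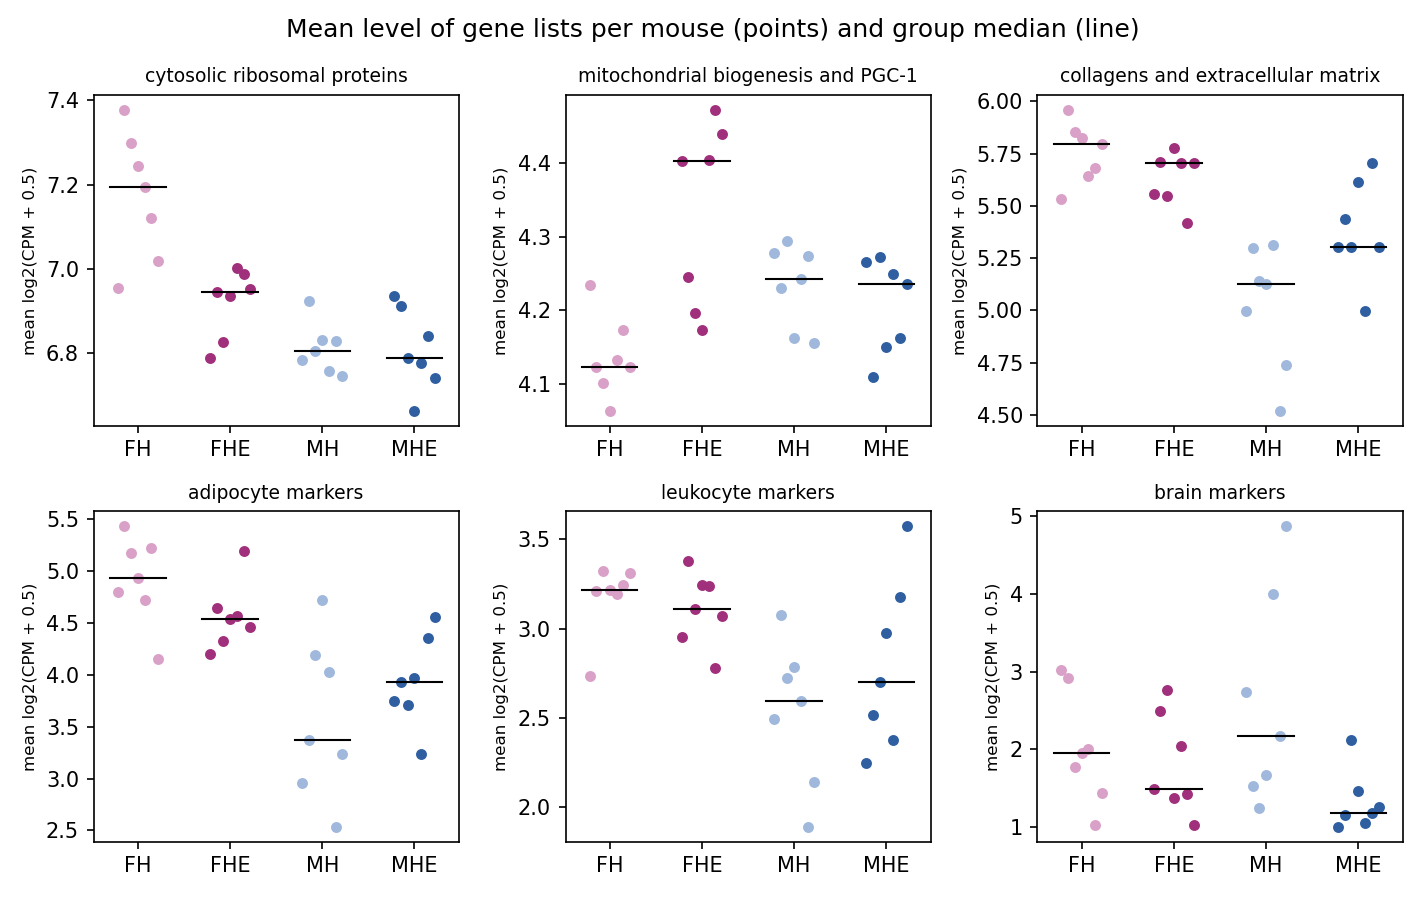
Mean log2(CPM + 0.5) of 3 pathway lists and 3 marker lists in each mouse, with the group median as a line. Ribosomal protein genes are highest in FH (median 7.19), and the brain markers of 2 MH mice lie at 3.997 and 4.87.

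Within females 299 genes were called, 158 higher and 141 lower in FHE, and within males the 2 insulin genes alone. The female count was 167 without FHE10, 174 without FH14, 196 without FHE2, 199 without FHE8 and 118 without the 10 mice of control-range Myl1. In males edgeR's quasi-likelihood test called 43 genes and DESeq2 194, the count was 5 without FH34 or without MH15, and 1417 genes had an unadjusted p under 0.05, so the contrast between 299 and 2 is not itself a test. Across the 299 genes 157 (52.5%) had the same sign in males, beside 50.2% of all autosomal genes. The largest rises in FHE without overlap were of Gm42892 (1.20 ± 0.27), Pan2, a deadenylase subunit (1.07 ± 0.28), Gm25873 and 4633401B06Rik (0.99 ± 0.24). The largest falls were of Map3k6 (-1.36 ± 0.37), D730045B01Rik (-1.17 ± 0.26), Snord49b (-1.14 ± 0.26) and Snord89 (-1.12 ± 0.13), the last 2 being small nucleolar RNAs. The change of Pan2 was 0.55 without FH34, its lowest FH mouse, and the quasi-likelihood test did not call it. Pan2, 4633401B06Rik and Map3k6 each lost the call in some fits without a mouse, Map3k6 for example without FHE8. Snord49b had nearly the same value in males (-1.11 ± 0.33, adjusted p = 0.282).

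The same sex difference was then read in the 28 control mice, which had no part in choosing the 73 genes. There (FCE minus FC) minus (MCE minus MC) had the sign found in knockout-labelled mice in 69 of the 73 genes (94.5%), beside 65% of all autosomal genes, and 38 of the 73 passed the test (52.1%, beside 8.74% of all genes). That test took the spread of each gene from all 56 mice. Choosing the genes in knockout-labelled mice may therefore favour the count of 38. The median absolute difference of the 73 genes was 0.62 in knockout-labelled and 0.49 in control mice, and choosing the genes in knockout-labelled mice favours the larger value there. Over all genes the fit of 56 mice called 185 differences in knockout-labelled and 1207 in control mice. Phkg1 had 0.73 ± 0.098 in controls (adjusted p = 1.77e-06), Rpl26 -0.63 ± 0.12 (adjusted p = 4.77e-04), and Mgp -0.92 ± 0.19 (adjusted p = 0.00121). Ppargc1b had 0.38 ± 0.14 (adjusted p = 0.0690). Frmd8, Plvap and Tagln had -0.073, 0.0036 and 0.39 there (adjusted p = 0.901, 0.995 and 0.369).

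Whether the sex difference depended on the genotype label was tested directly, as the difference between the 2 differences of differences in a fit of all 56 mice. No gene of 13813 passed (limma, smallest adjusted p = 0.0917), 1096 had an unadjusted p under 0.05, edgeR's quasi-likelihood test called 0 and DESeq2 called 4. Of the 73 genes 21 had an unadjusted p under 0.05 and 0 an adjusted p of 0.05 or less. A sex difference particular to knockout-labelled mice was thus not shown for any of these genes. The markers of fibroblasts, leukocytes and adipocytes also had negative medians in the control mice (-1.03, -1.16 and -0.52). The endothelial median was -0.072 there, beside -0.28 in knockout-labelled mice. Brain and liver markers had the opposite sign in the control mice (-0.19 and -2.12, beside 1.84 and 0.12). Ribosomal protein and collagen lists had medians of -0.32 and -0.85 in the control mice, beside -0.30 and -0.40 in knockout-labelled mice. The control median was 0.077 for the mitochondrial biogenesis and PGC-1 list, beside 0.27. It was -0.022 for fatty acid uptake and oxidation, beside 0.16.

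**Figure D5:**
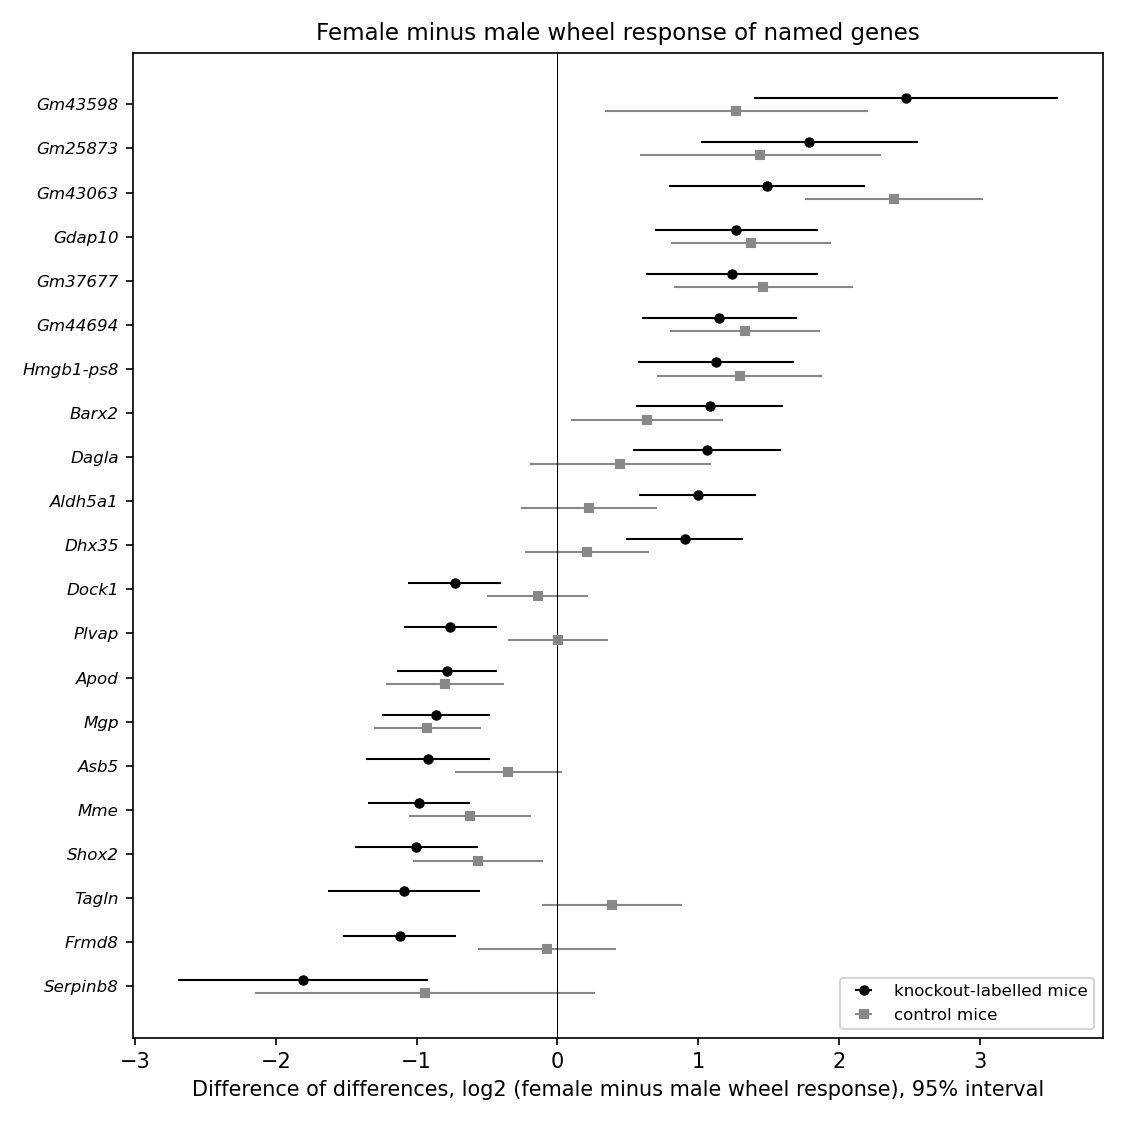
Female minus male wheel response (log2, x axis) of named genes without the insulin genes, with 95% intervals, in knockout-labelled mice (black circles) and control mice (grey squares). The control values of Gm43063 and Gdap10 lie on the same side of 0 with intervals clear of it, and those of Frmd8 and Plvap span 0.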

How the data were processed

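RNA of the gastrocnemius muscle of 56 mice was sequenced, and 28 knockout-labelled mice in 4 groups of 7 were compared, with 28 controls. The authors deposited raw counts per gene (15539 genes), from which genes with a low total had already been removed (the smallest total over 56 mice was 168), and 56 further columns of the table were not used here. Per the submitters' processing notes the build was GRCm38/mm10, with R 4.0.3 and edgeR 3.38.4. The aligner, the counter and the use of strand are not given in the sources used here. The labels name a 3′ mRNA library and the study's methods a stranded total RNA library. With a 3′ library, tags outside the deleted exons would not check the knockout.

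Counts were filtered by expression over the 4 groups (13642 genes kept, 13163 of them autosomal), scaled by TMM (edgeR 4.0.16) and fitted by voom and limma 3.58.1 in R 4.3.3, with Benjamini-Hochberg adjustment over all 13642 genes and calls at an adjusted p of 0.05. The difference between genotype labels was fitted on all 56 mice (13813 autosomal genes). List levels used log2(CPM + 0.5). Genes named were Elavl1, the 12 largest called differences in each direction with a mean of at least 10 counts, the 4 largest rises and falls per sex without overlap, listed genes called in any contrast or else the 2 with the largest statistic, and markers, of which some are not reported here. The comparison and lists were chosen with earlier results of these data known. Alternatives were edgeR's quasi-likelihood test, DESeq2 1.42.0, other scalings, filters, covariates and subsets of mice.

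Total counts were 7889427 to 18394231 per mouse. On simulated data of 13498 genes, 16%, 54%, 72% and 92% of 50 differences of differences of 0.5, 1, 1.5 and 2 on the log2 scale were recovered, so many differences of 0.5 would be missed. Mice of a group were separate by label, and every pair within a group differed by more than counting error (chi-square divided by its degrees of freedom 5.5 or more).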

Additional observations from a re-analysis of the deposited data

Results flagged for a closer look

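The wheel response differed between females and males in 73 autosomal genes by the test of that difference itself (limma).

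In 124 groups of 7 mice examined for single values far from the rest, 11 values stood apart, where chance flags about 1 in 20 groups. Of these, 2 were of FH34, with Pan2 at 0.6216 CPM (group median 5.224) and Snord89 at 245.3 (median 171.8). FH34 also stood apart from the other mice over all genes. In MHE, Aldh5a1 was at 2.758 CPM in MHE4 (median 4.061), Barx2 at 3.783 in MHE2 (median 5.012), Mme at 7.596 in MHE1 (median 10.5) and Gm42892 at 1.211 in MHE6 (median 2.685). Shox2 was at 8.601 CPM in FH31 (median 11.08) and Map3k6 at 0.07512 in FHE8 (median 0.6178). The insulin values that stood apart rest on at most 4 counts, with Ins1 at 0.08229 CPM in FH30 and 0.2169 in FHE3, and Ins2 at 0.2859 in MH8.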

How the results depend on the processing

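The count of 73 differences was 60 by edgeR's quasi-likelihood test and 218 by DESeq2, 262 with sample quality weights, 185 in the fit of 56 mice, 14, 8 and 21 with the adipocyte, leukocyte or brain markers as a covariate, 34 without MH9 and MH24, and 39 without the 10 mice of control-range Myl1. It ran from 11 to 180 when a mouse was left out. The 299 genes called in females became 551 by DESeq2, 472 with weights, 529 in the fit of 56 mice, 147 with only the 2 groups compared, 118 without the mice of control-range Myl1, and 167 to 386 when a mouse was left out. The 2 called in males became 43 by the quasi-likelihood test, 194 by DESeq2, 10 with weights, 6 in the fit of 56 mice, 7 without the mice of control-range Myl1, 2 to 5 when a mouse was left out, and 0 with at least 10 counts in every mouse, which removes both insulin genes by construction (1072 unadjusted). The test of the genotype label gave 0 by limma and 4 by DESeq2. The cause of the other changes was not tested. All 73 genes kept their direction in every setting that tested them. The 24 differences that the rule for named genes chose kept the call 421 times and lost it 251 times over the fits without a mouse, and kept it 287 and lost it 111 times over the other fits, while 5 had no adjusted p from DESeq2 and are not counted there. The brain marker covariate and both joint removals of mice were chosen after seeing the data. The labels do not say whether a mouse number shared between groups pairs the mice, and pairing was not shown, since the correlation of deviations in 5 pairs (0.0309 to 0.211) was not above 0.1 in every pair. With the number as a replicate block 74 differences, 293 genes in females and 2 in males were called (within-number correlation 0.0767).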

Other observations

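Mitochondrial transfer RNAs, which are outside the autosomal comparison and were looked at after their values were seen, were lower in running females. Of 12 tested, 10 were called lower in FHE than in FH (1.07% of autosomal genes were). In MHE minus MH 0 were called, where 0.0152% of autosomal genes were. The male log2 changes of those 10 were negative as well, from -1.40 (mt-Tf) to -0.21 (mt-Ts2). All 12 had a negative difference of differences and 2 passed the test. The median log2 change was -1.03 in females and -0.30 in males, and the median difference of differences was -0.66. The 10 genes called lower in FHE also had negative changes in control females (FCE minus FC), from -1.18 (mt-Ts2) to -0.15 (mt-Ti). In control males (MCE minus MC) their changes ran from -0.72 (mt-Ts2) to 0.12 (mt-Ti).

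The merged exon length of called genes also varied by direction. The median was 7626 bases for the 42 genes with a higher response in females and 2857 for the 31 with a higher response in males, beside 4360 over all autosomal genes. Among genes called in females alone it was 6433 for those higher and 2076 for those lower in FHE. Length was not used as a covariate, and its part in these results was not tested.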
